A study of Rattus norvegicus with 36 samples.

Results

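The ABC exporters of the liver are membrane pumps that use ATP to move bile salts, conjugated drugs, phospholipids and foreign chemicals out of hepatocytes. The 10 genes described here were chosen by name, with earlier results of these data known. Abcc1, Abcc3, Abcc4 and Abcc6 encode exporters of the basolateral membrane, which faces the blood. Abcc2, Abcb1a, Abcb1b, Abcb4, Abcb11 and Abcg2 encode exporters of the canalicular membrane, which faces the bile. The array carried 11 probe sets for them, of 31042 tested, and 9 of the 10 genes, of 14217 named genes on the array, had a probe set of their own. Abcb1b had none: 1 probe set is annotated to Abcb1a and Abcb1b together and is given as shared.

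Expression was measured in livers of male Sprague Dawley rats, 36 samples in 6 groups of 6. Dosing began at 7 weeks of age, and the rats were gavaged on 5 days with hexachlorocyclopentadienyl-dibromocyclooctane (HCDBCO), a halogenated flame retardant, at 541, 54.1, 5.41, 0.54 or 0.05 mg/kg. The vehicle group, and every treated group too, received corn oil, at 5 ml/kg body weight, and tissue came from the left lobe 1 day after the last dose. The design asks which transcripts each dose changed relative to vehicle. Values are log2 RMA values, so a difference of 1 is a doubling. A ± beside a level is the SD over 6 samples, a ± beside a difference is the standard error of the fit, and an adjusted p is limma's, adjusted over all probe sets and called at a false discovery rate (FDR) of 5%.

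Canalicular exporters set the composition of bile. Abcb11 pumps bile salts, Abcc2 pumps bilirubin and other conjugates, and Abcb4 moves phosphatidylcholine to the outer leaflet so that bile salts do not damage the ducts. Basolateral Abcc3 and Abcc4 return conjugates and bile salts to the blood, and their transcripts are known to rise in cholestasis and under inducers of drug metabolism, among them ligands of the nuclear receptors CAR and PXR.

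Promoter sequence is shown for 3 canalicular genes: Abcc2, the canalicular relative against which Abcc3 and Abcc4 are set, and Abcb1a and Abcb4, which lie in 1 gene cluster and whose transcripts correlated within groups. Each line is the RefSeq sequence of the 250 bases before the annotated start, from assembly GRCr8, written 5′ to 3′ on the gene's strand. Capitals mark every match, on either strand, to AGNTCA, a half-site bound by nuclear receptors, or to GCGTG, the core bound by the dioxin receptor Ahr. The windows are chr1:252613625-252613874 on the plus strand for Abcc2, chr4:26397649-26397898 on the minus strand for Abcb1a, and chr4:26164146-26164395 on the minus strand for Abcb4.
Abcc2: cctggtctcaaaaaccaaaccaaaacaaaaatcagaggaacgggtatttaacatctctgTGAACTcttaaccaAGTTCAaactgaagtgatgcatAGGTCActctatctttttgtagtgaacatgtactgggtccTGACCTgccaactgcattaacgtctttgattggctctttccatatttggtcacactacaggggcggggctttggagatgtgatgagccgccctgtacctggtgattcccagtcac
Abcb1a: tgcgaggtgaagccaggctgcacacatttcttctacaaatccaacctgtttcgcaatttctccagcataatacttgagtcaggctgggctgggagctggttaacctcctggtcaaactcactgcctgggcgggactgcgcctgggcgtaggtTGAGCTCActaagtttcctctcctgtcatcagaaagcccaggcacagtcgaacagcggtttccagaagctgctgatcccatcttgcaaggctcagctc
Abcb4: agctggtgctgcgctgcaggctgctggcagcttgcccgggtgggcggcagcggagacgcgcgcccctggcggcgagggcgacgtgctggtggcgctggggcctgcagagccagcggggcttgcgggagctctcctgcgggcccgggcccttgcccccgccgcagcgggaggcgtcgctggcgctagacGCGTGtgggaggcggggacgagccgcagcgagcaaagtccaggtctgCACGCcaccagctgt
Abcc2 held 4 matches to AGNTCA and Abcb1a held 2, which overlap each other at -98 to -93 and -96 to -91 from the start, while Abcb4 held none. Abcb4 held 2 matches to GCGTG and the other two none. Of all 33469 promoters of this length, 41.0% held AGNTCA and 25.9% held GCGTG. The promoter table used here covered 8 of the 10 genes, without Abcc3 and Abcb11. Among those 8, TGACNNNGC, the core of the antioxidant response element, had no match on either strand, and 10.1% of all promoters held it. Of the covered genes not shown, Abcc4 held 2 matches to GCGTG and Abcc1 held 1, both without AGNTCA. Abcb1b held 1 match to AGNTCA and none to GCGTG, while Abcc6 and Abcg2 held neither. Whether such matches go with a change in transcript was not tested. GC content was 45.2% for Abcc2, 54.0% for Abcb1a and 76.0% for Abcb4.

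Median log2 values per array ran from 5.06 to 5.17 over the 36 arrays, and the correlation of any pair of arrays over all probe sets was between 0.991 and 0.997. The array of 54.1 mg/kg replicate 5 stood apart in its quartiles, so some values at 54.1 mg/kg are given below without it as well. Without it the difference from vehicle went from 0.19 to 0.26 for the shared probe set. It went from 0.30 to 0.36 for the Abcb1a probe set of higher mean and from -0.16 to -0.11 for Abcc6. For Abcc2 it went from 0.05 to 0.09 and for Abcg2 from 0.04 to 0.08. None of these was called with or without that array. The sample 0.54 mg/kg replicate 4 stood apart in bile duct markers, whose mean log2 value was 7.44 there and between 6.01 and 6.44 in the 35 others. Hepatocyte markers, 12 of 13 listed genes measured, had a mean of 13.22 ± 0.05 in vehicle and 13.15 ± 0.04 at 541 mg/kg, so the label of liver tissue was borne out by its defining genes. RNA degradation, read as how far the 3′ end of beta-actin exceeded its 5′ end (log2), was 1.18 ± 0.09 at 541 mg/kg and 1.13 ± 0.08 in vehicle.

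Abcc3 rose with dose and was the member that moved most. In vehicle its 6 samples ran from 4.52 through a median of 5.06 to 5.20. At 0.05, 0.54 and 5.41 mg/kg the lowest, median and highest samples were 4.85, 5.17 and 5.80, then 4.75, 5.40 and 6.00, then 4.70, 5.35 and 6.38. They were 6.00, 6.46 and 6.79 at 54.1 mg/kg, and 5.79, 7.06 and 8.04 at 541 mg/kg. Every sample of the 2 highest doses lay above every vehicle sample, while each of the 3 lowest doses overlapped vehicle.

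The Abcc3 difference from vehicle was 2.14 ± 0.28 at 541 mg/kg, 4.42-fold with a 95% interval from 2.99 to 6.54 (adjusted p = 3.53e-05). With 1 probe set a gene, it was the highest difference among all 14217 named genes. The highest over all 31042 probe sets was 2.70. The vehicle mean of 4.93 lay below the median of every array, and the deposited values carry no detection call, so whether Abcc3 was above background in vehicle was not tested and the fold is one of RMA values. The lower of these doses gave 1.53 ± 0.28, 2.88-fold with an interval from 1.95 to 4.27 (adjusted p = 0.0173). It was 1.62 at 54.1 mg/kg without replicate 5 of that dose (adjusted p = 0.0166), and 1.44 without vehicle replicate 1, where the call was lost (adjusted p = 0.0513). Abcc3 was the 1 called of 11 member probe sets at 541 mg/kg, where 0.155% of all 31042 were called, and again at 54.1 mg/kg, where 0.0741% were. It was also the 1 of 11 whose groups did not overlap with vehicle at each of these doses, a pattern shown by 0.744% of all probe sets at 541 mg/kg and 0.596% at 54.1 mg/kg.

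At the 3 lowest doses no member was called, and 0% of all probe sets were called at each. At an unadjusted p under 0.05 the fit counted 0 of 11 members at 5.41, 0.54 and 0.05 mg/kg, against 4.83%, 4.18% and 3.02% of all probe sets. Abcc3 means were nonetheless 0.53, 0.39 and 0.29 above vehicle in that order, each ± 0.28. At 5.41 mg/kg the samples split widely: replicates 1 and 3 were at 6.09 and 6.38, replicates 5 and 6 at 4.70 and 4.90.

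**Figure D1:**
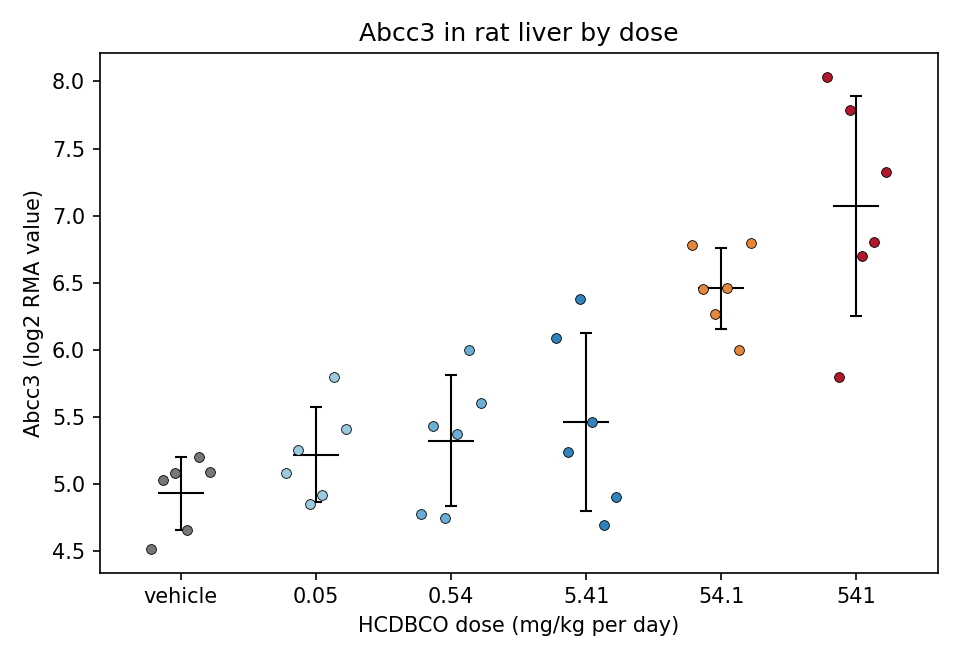
Log2 RMA value of Abcc3 (vertical axis) in each of 6 livers per dose (horizontal axis, mg/kg per day), 1 point a sample, with the mean as a bar and the SD as whiskers. All samples at 54.1 and 541 mg/kg lie above the highest vehicle sample at 5.20, and the spread is widest at 541 mg/kg, from 5.79 to 8.04.

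The Abcc3 means by dose order were 4.93 ± 0.27, 5.22 ± 0.35, 5.32 ± 0.49, 5.46 ± 0.66, 6.46 ± 0.30 and 7.07 ± 0.82. A linear trend over the 6 dose ranks gave 0.42 ± 0.05 per step (adjusted p = 1.19e-06), and the F-test over the 6 groups called it too (adjusted p = 4.84e-05). Abcc3 was the 1 member called by the F-test, where 0.0999% of all probe sets were called. Neighbouring means in this order did not pass a test. The step from 5.41 to 54.1 mg/kg, a comparison chosen after the data were seen, was 1.00 ± 0.28 (limma adjusted p = 1.00), with 0% of all probe sets called and 3 of 11 members, against 4.34% of all, at an unadjusted p under 0.05. Those 3 were Abcc3 and both Abcb1a probe sets, which report on 1 gene. The step from 54.1 to 541 mg/kg was 0.62 ± 0.28, with a 95% interval from 0.05 to 1.18 (adjusted p = 0.999). No member was called in that comparison, where 0.00322% of all were, and Abcc3 was the 1 member at an unadjusted p under 0.05.

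With the 3 lowest doses (18 samples) in place of vehicle as the reference, Abcc3 was 1.74 ± 0.23 higher at 541 mg/kg (adjusted p = 3.26e-05). The same comparison for 54.1 mg/kg gave 1.12 ± 0.23, which missed the threshold (adjusted p = 0.0655). No member was called there (0.0161% of all probe sets were), though 6 of 11, against 6.08% of all, had an unadjusted p under 0.05. Those 6 were Abcc3, Abcc2, both Abcb1a probe sets and the shared probe set, all higher, and Abcb4, which was lower. Abcc3 was called there when any 1 of 4 samples was left out (0.05 mg/kg replicate 5, 0.54 mg/kg replicate 5, 5.41 mg/kg replicate 1 or 5.41 mg/kg replicate 3).

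Abcc4, a basolateral exporter of cyclic nucleotides and of bile salts together with glutathione, showed a smaller upward trend. Its lowest, median and highest samples were 5.29, 5.68 and 5.84 in vehicle, 5.50, 5.99 and 6.14 at 5.41 mg/kg, 5.74, 5.88 and 6.10 at 54.1 mg/kg, and 5.66, 6.10 and 6.31 at 541 mg/kg. At 0.05 and 0.54 mg/kg the medians were 5.76 and 5.73. At the top dose 5 of 6 samples lay above all vehicle samples and replicate 2, at 5.66, lay among them.

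The Abcc4 difference at 541 mg/kg was 0.42 ± 0.12, 1.34-fold with an interval from 1.13 to 1.59, and was not called (adjusted p = 0.178). It was 0.24 ± 0.12 at 54.1 mg/kg (adjusted p = 0.55). The trend over dose order was 0.083 ± 0.020 per step and passed narrowly (adjusted p = 0.0418). That call held in 21 of 36 fits that left out 1 sample, with adjusted p between 0.0155 and 0.0811. It was lost without vehicle replicate 1, 2, 3 or 5, without 0.05 mg/kg replicate 2, 3 or 4, without 54.1 mg/kg replicate 2, 3 or 4, and without 541 mg/kg replicate 1, 3, 4, 5 or 6. It was also lost when arrays were centred on their medians (0.082 per step, adjusted p = 0.0561).

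The other basolateral members gave no call in any comparison. Abcc6, the hepatocyte ATP exporter whose loss causes pseudoxanthoma elasticum, had lowest, median and highest samples of 8.45, 8.81 and 9.03 in vehicle and 8.43, 8.66 and 8.77 at 541 mg/kg. Its difference was -0.14 ± 0.11 (95% interval -0.37 to 0.08, adjusted p = 0.745), and the groups overlapped at every dose. Abcc1, an exporter of glutathione conjugates that is low in resting hepatocytes, ran from 5.39 to 5.61 in vehicle and from 5.28 to 5.63 at 541 mg/kg. The Abcc1 difference was -0.05 ± 0.09 (interval -0.23 to 0.14, adjusted p = 0.924). Its highest value in the whole study, 5.91, was in 0.54 mg/kg replicate 4, the sample with the high bile duct markers, while the 35 others ran from 5.24 to 5.70. Without that sample the Abcc1 mean of the 0.54 mg/kg group was 5.40 in place of 5.49. The part of bile duct cells in the Abcc1 value was not tested. In whole tissue, more cells of a type and more RNA per cell cannot be told apart.

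On the canalicular side, Abcc2 stayed close to vehicle. Its lowest, median and highest samples were 9.98, 10.16 and 10.32 in vehicle, 9.98, 10.24 and 10.40 at 54.1 mg/kg, and 10.20, 10.35 and 10.51 at 541 mg/kg. Medians at 0.05, 0.54 and 5.41 mg/kg were 10.10, 10.03 and 10.16. The top dose was above the vehicle mean in 6 of 6 samples, and 4 of them lay above all vehicle samples. Its difference from vehicle was 0.18 ± 0.10, 1.13-fold with an interval from 0.98 to 1.31 (adjusted p = 0.618). Against the 3 lowest doses, whose Abcc2 means lay below vehicle, it was 0.30 ± 0.08 (adjusted p = 0.141), and the trend was 0.043 ± 0.017 per step (adjusted p = 0.289).

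Abcb1a, which encodes one of the rodent forms of P-glycoprotein, an exporter of hydrophobic drugs, rose in the trend over dose. Of its 2 probe sets, the one with the higher mean had lowest, median and highest samples of 6.74, 7.21 and 7.49 in vehicle, 7.17, 7.55 and 7.64 at 54.1 mg/kg, and 7.41, 7.55 and 7.92 at 541 mg/kg. The 3 lowest doses, with medians of 7.27, 7.16 and 7.20, sat within the vehicle range. All 6 samples of each of the 2 highest doses lay above the vehicle mean, with 4 of 6 above all vehicle samples, so the groups overlapped. The trend was 0.087 ± 0.020 per step (adjusted p = 0.0268). It was lost in 3 of 36 fits that left out 1 sample, those without vehicle replicate 5, 541 mg/kg replicate 1 or 541 mg/kg replicate 5, where adjusted p was 0.0729, 0.0686 and 0.0652.

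Against vehicle alone this Abcb1a probe set was 0.44 ± 0.12 higher at 541 mg/kg, 1.36-fold with an interval from 1.15 to 1.60, without a call (adjusted p = 0.128), and 0.30 ± 0.12 higher at 54.1 mg/kg (adjusted p = 0.41). Against the 3 lowest doses it was 0.42 ± 0.10 higher at 541 mg/kg and passed (adjusted p = 0.0375). The latter call rested on many samples: it held in 11 of 24 fits without 1 sample and was lost without 541 mg/kg replicate 1, 3, 4, 5 or 6, without 0.05 mg/kg replicate 3, 4 or 6, without 0.54 mg/kg replicate 1, 4 or 6, and without 5.41 mg/kg replicate 1 or 6. The highest adjusted p among those, 0.191, was without 541 mg/kg replicate 5, where the difference was 0.36. In a fit of only the groups compared it was 0.42 (adjusted p = 0.0529).

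The second Abcb1a probe set differed from the first in its calls. It was 0.30 ± 0.13 higher at 541 mg/kg and 0.29 ± 0.13 at 54.1 mg/kg (adjusted p = 0.454 and 0.484), its trend was 0.075 ± 0.022 per step (adjusted p = 0.0971), and it was called in no comparison, though with array quality weights its trend passed (0.082 per step, adjusted p = 0.0481). The probe set shared by Abcb1a and Abcb1b was 0.32 ± 0.15 higher at 541 mg/kg (adjusted p = 0.525), with a trend of 0.070 ± 0.025 per step (adjusted p = 0.218). All 3 thus lay in 1 direction at both doses, and what share of the shared signal comes from Abcb1b cannot be read from it.

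Abcb4, the phospholipid floppase, lay lower at the 2 highest doses without passing any test. Its lowest, median and highest samples were 8.57, 8.90 and 9.01 in vehicle, 8.24, 8.67 and 8.91 at 54.1 mg/kg, and 8.45, 8.51 and 8.82 at 541 mg/kg. All 6 samples at 541 mg/kg were below the vehicle mean and 4 were below every vehicle sample. The difference was -0.28 ± 0.11, an interval from -0.51 to -0.04 (adjusted p = 0.431), and -0.22 ± 0.11 at 54.1 mg/kg (adjusted p = 0.571). Without replicate 5 of 54.1 mg/kg the latter was -0.15. The trend was -0.057 ± 0.019 per step (adjusted p = 0.18).

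Abcb11, the bile salt export pump, ran from 10.54 to 11.05 in vehicle, from 10.59 to 10.88 at 54.1 mg/kg and from 10.56 to 10.93 at 541 mg/kg. The Abcb11 difference was -0.05 ± 0.11 at 541 mg/kg (95% interval -0.27 to 0.16, adjusted p = 0.924), which leaves room for a fold between 0.830 and 1.12. Abcg2, an exporter of sulphated conjugates and porphyrins, ran from 8.31 to 8.59 in vehicle and from 8.14 to 8.57 at 541 mg/kg. Its difference was -0.11 ± 0.10 (interval -0.30 to 0.09), a fold between 0.812 and 1.06. Both overlapped vehicle at every dose.

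**Figure D2:**
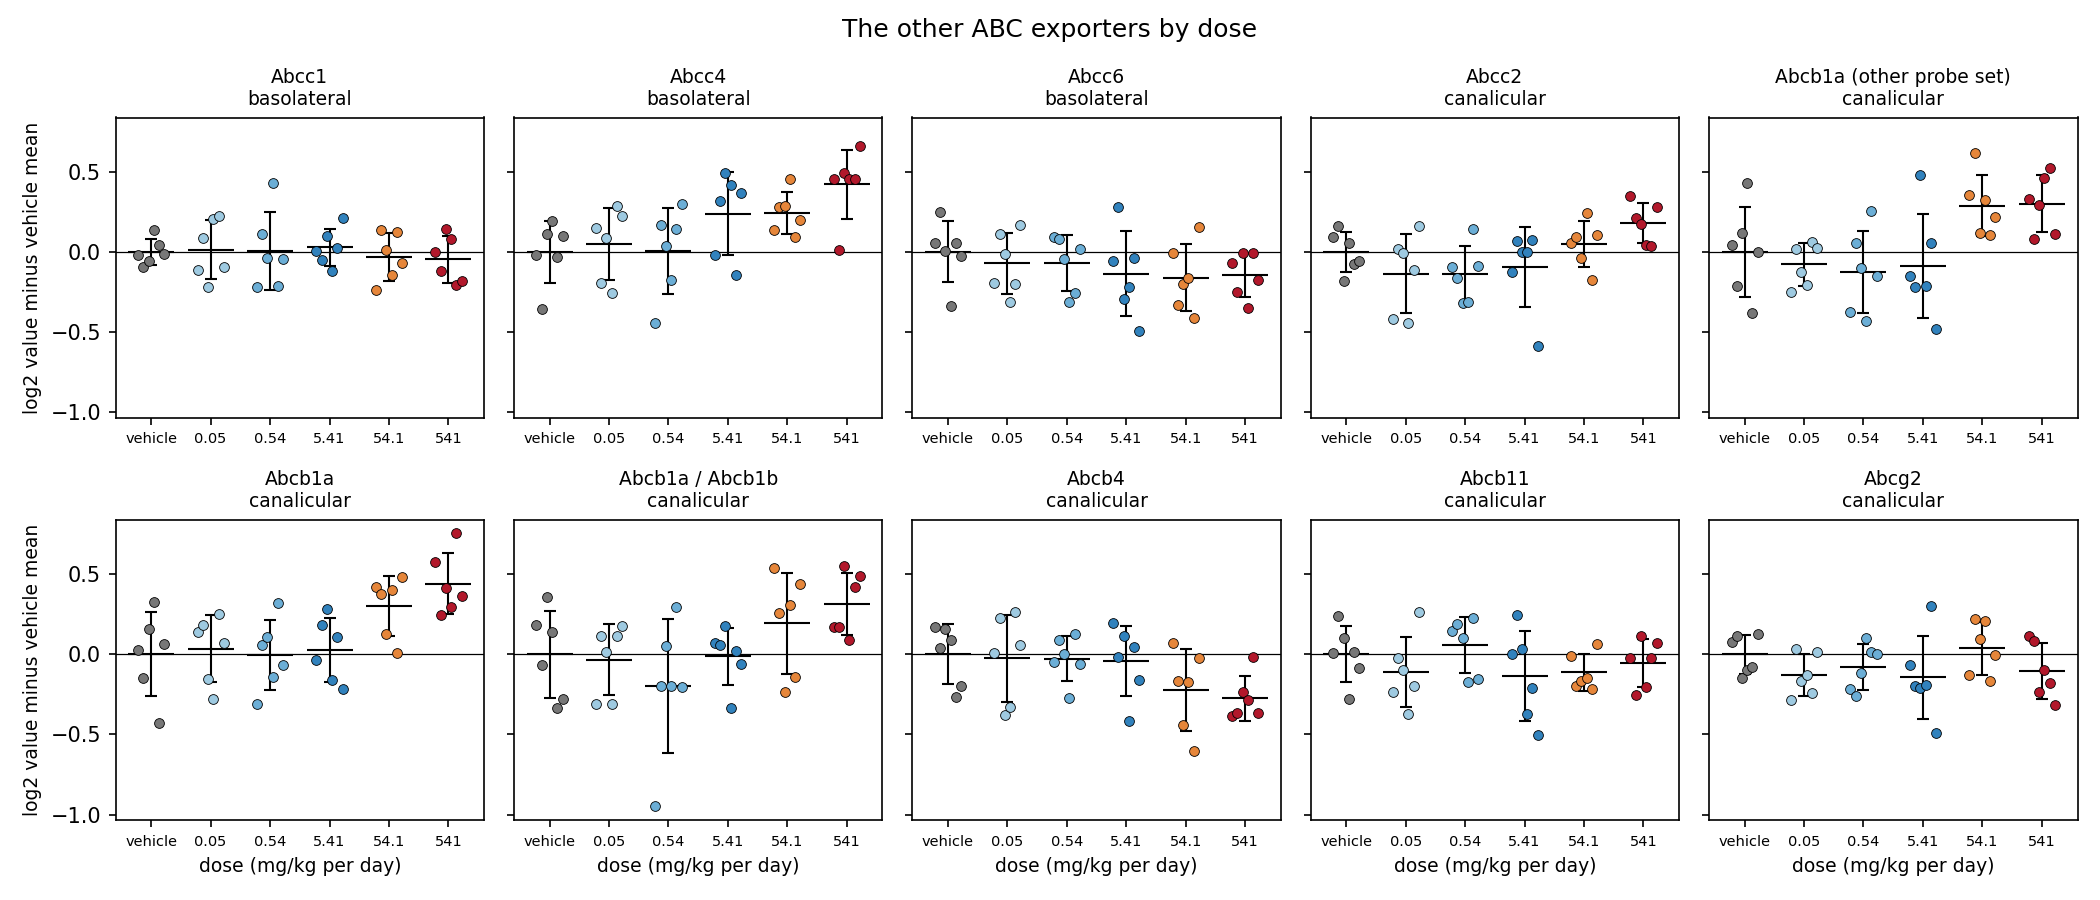
Log2 value minus the vehicle mean (vertical axis) of the 10 member probe sets other than Abcc3, by dose (horizontal axis, mg/kg per day), 1 point a sample, mean as a bar and SD as whiskers. Abcc4 and the Abcb1a probe sets lie mostly above 0 at 54.1 and 541 mg/kg and Abcb4 mostly below it, with overlap with vehicle in every panel.

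Over both membranes, the trend called 3 of 11 member probe sets, Abcc3, Abcc4 and Abcb1a, all upward, against 0.715% of all probe sets in either direction. Against the 3 lowest doses, 541 mg/kg called 2 of 11, Abcc3 and Abcb1a, where 0.271% of all were called. At an unadjusted p under 0.05 the comparison of 541 mg/kg with vehicle counted 6 of 11 members and 9.07% of all probe sets. Of those 6, 3 are the Abcb1a and shared probe sets, which report on 1 or 2 neighbouring genes. Abcb4, also among the 6, was lower.

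The basolateral and canalicular exporters did not separate as groups. At 541 mg/kg the 4 basolateral genes had a median difference of 0.19, with 2 of 4 higher and 1 called. The 5 canalicular genes with a probe set of their own had a median of -0.05, with 2 of 5 higher and none called. The median over all genes was 0.0074. At that dose each side held members with higher and with lower means: Abcc3 and Abcc4 against Abcc6 and Abcc1, and Abcb1a and Abcc2 against Abcb4, Abcb11 and Abcg2. At 54.1 mg/kg, where the Abcg2 mean was 0.04 above vehicle, the medians were 0.11 on the basolateral and 0.04 on the canalicular side, against 0.0082 over all genes. Without replicate 5 of that dose they were 0.11 and 0.08. At each of 5.41, 0.54 and 0.05 mg/kg, 3 of 4 basolateral and 1 of 5 canalicular genes had higher means, with no call. The basolateral medians there were 0.13, 0.0053 and 0.03, and the canalicular ones -0.09, -0.03 and -0.11. Whether the sides differed at these doses was not tested.

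**Figure D3:**
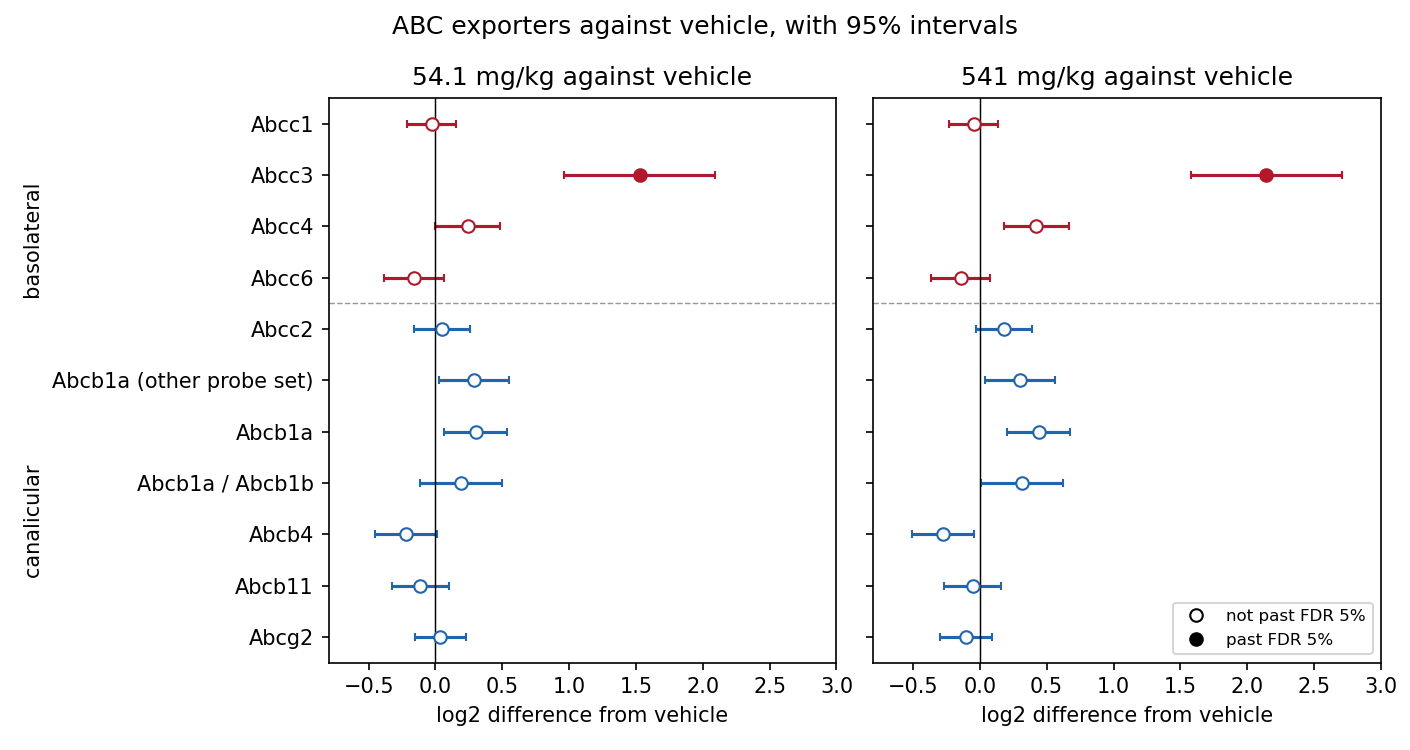
Log2 difference from vehicle (horizontal axis) of each member probe set (vertical axis), at 54.1 mg/kg (left) and 541 mg/kg (right), with 95% intervals from the fit; red is basolateral, blue canalicular, and filled points passed an FDR of 5%. Abcc3 alone is filled, at 1.53 and 2.14, while the 10 others lie between -0.28 and 0.44.

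Within each liver, Abcc3 and Abcc4 were set against Abcc2, a member of the same ABCC subfamily that pumps conjugates into bile. The other members were not set against each other, so these ratios compare 3 genes and not the membranes. The log2 ratio of Abcc3 to Abcc2 was 1.96 higher at 541 mg/kg than in vehicle, a 3.90-fold change of the ratio, and 1.48 higher at 54.1 mg/kg, 2.79-fold. In 6 of 6 samples of each dose it lay above every vehicle sample. The two-sided exact permutation test gave p = 0.00216 at both doses, the smallest that 6 against 6 samples allow, and 0.0108 after Benjamini-Hochberg adjustment over the 10 ratio comparisons. At 5.41, 0.54 and 0.05 mg/kg the ratio was 0.63, 0.53 and 0.42 higher (exact permutation test, adjusted p = 0.143, 0.123 and 0.143), with 4, 4 and 3 of 6 samples above all vehicle samples. At 5.41 mg/kg it passed when replicate 5 of that dose was left out (0.81, exact adjusted p = 0.0289).

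The ratio of Abcc4 to Abcc2 passed the exact permutation test against vehicle at no dose. It was 0.24 higher at 541 mg/kg and 0.19 at 54.1 mg/kg (exact permutation test, adjusted p = 0.184 for both), and between 0.14 and 0.33 higher at the other doses (adjusted p between 0.184 and 0.403). The level of one probe set was not set against that of another: only the change of each ratio from vehicle is read. These ratios use the same Abcc3 values as the comparisons above and are no independent evidence.

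**Figure D4:**
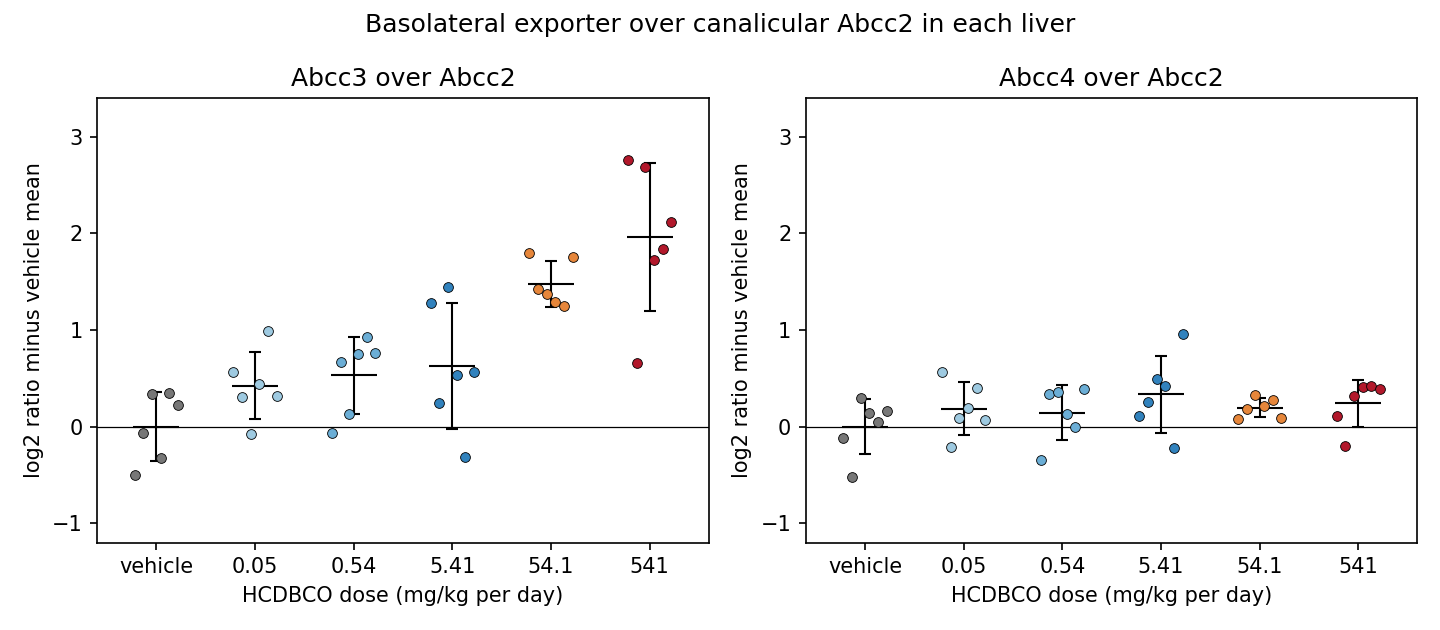
Log2 ratio of Abcc3 to Abcc2 (left) and of Abcc4 to Abcc2 (right) in each liver, minus the vehicle mean (vertical axis), by dose (horizontal axis, mg/kg per day), with mean and SD. The left panel rises to means of 1.48 and 1.96 at the 2 highest doses, and the right panel stays within means of 0.14 to 0.33.

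Members also varied between livers of 1 group. As deviations from group means over 36 samples, the 2 Abcb1a probe sets correlated at 0.77, and the one with the higher mean at 0.69 with the shared probe set and at 0.74 with Abcb4. Abcb4, Abcb1b and Abcb1a are neighbours on chromosome 4 in the RefSeq gene table, with 0 protein-coding genes between Abcb4 and Abcb1b or between Abcb1b and Abcb1a. The means of Abcb1a and Abcb4 nonetheless lay on opposite sides of vehicle at 541 mg/kg, at 0.44 and -0.28. Abcc6 and Abcb11 correlated at 0.76, and Abcc3 with Abcc4 at 0.44. With canalicular members Abcc3 correlated at 0.42 for Abcb11, and at 0.36 for both the shared probe set and the Abcb1a probe set of higher mean. Pairs on 1 array share its hybridisation and liver, so these coefficients are a description.

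The 8 genes named here followed Abcc3 most closely over the 36 samples, by Pearson r. They were Aldh1a1 at 0.89, Ces2c at 0.88, Ephx1 and Gsta3 at 0.84, App at 0.83, Aox1 and Cyp2c6v1 at 0.81, and Gsta1 at 0.80. Aldh1a1 oxidises retinal and other aldehydes, Ces2c is a carboxylesterase, Ephx1 a microsomal epoxide hydrolase, Aox1 an aldehyde oxidase, and Gsta1 and Gsta3 are glutathione transferases. Over all 14216 other genes, r lay between -0.32 and 0.37 for the middle 90%. Dose groups differ in both genes of such a pair, so r was taken within groups too. There Aldh1a1 remained first of all genes at 0.76, Gsta3 was at 0.66, Aox1 at 0.64, Ces2c at 0.60, Ephx1 at 0.57, Gsta1 at 0.55, App at 0.50 and Cyp2c6v1 at 0.24, against a middle 90% of all genes from -0.34 to 0.35. App ranked 83 and Cyp2c6v1, inside that range, 1964. Without the 2 samples farthest from the Abcc3 median, r was 0.87 for Aldh1a1 and between 0.70 and 0.83 for the others.

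In 541 mg/kg replicate 2 Abcc3 was 5.79, below all 6 samples at 54.1 mg/kg. Each of the 8 genes also had its lowest value of that dose there, which the choice by r favours since this liver is among the 36 samples, and for Cyp2c6v1 the gap was small (13.8505 against 13.8515 in replicate 6). Aldh1a1 was 11.88 in that liver against 12.32 to 12.58 in the other 5, and Ces2c 8.50 against 8.58 to 9.35. Abcc4 was lowest there too, at 5.66 against 6.09 to 6.31. Abcc2 was 10.37 there, above the median of that dose. Without it, the Abcc3 difference at 541 mg/kg was 2.40.

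**Figure D5:**
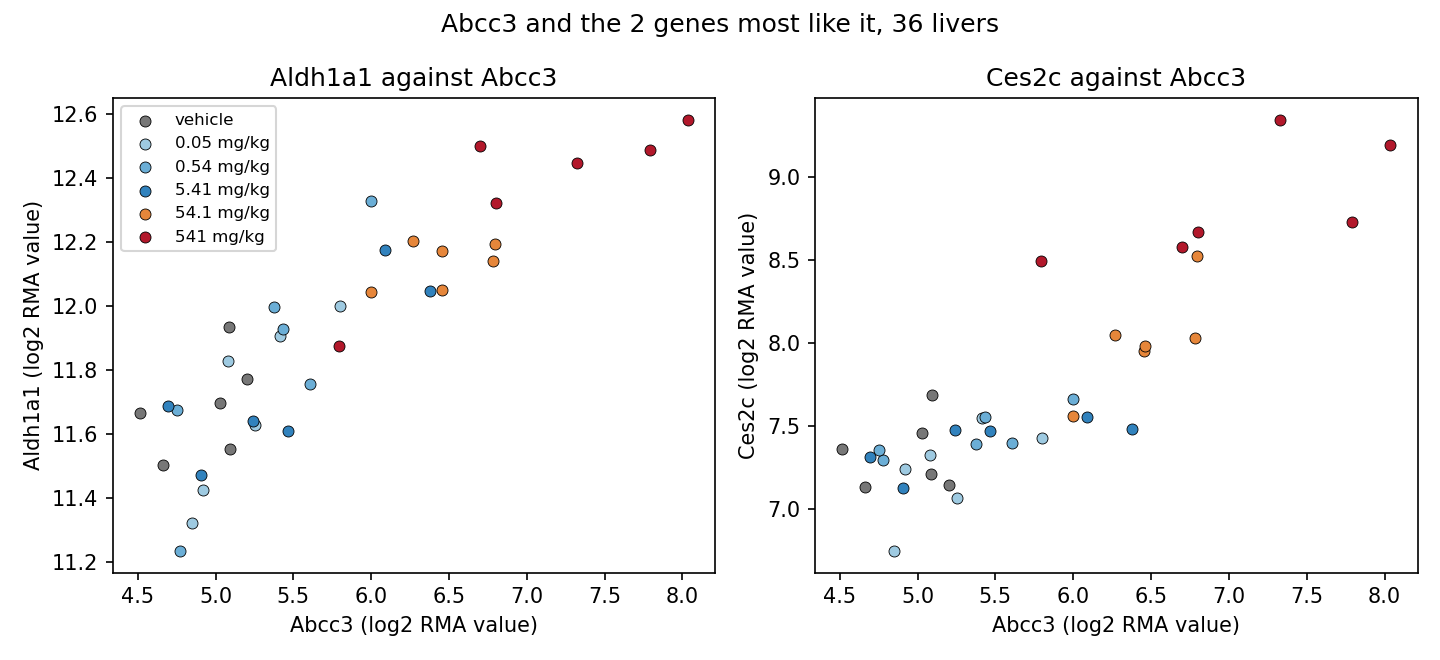
Log2 values of Aldh1a1 (left) and Ces2c (right) on the vertical axes against Abcc3 on the horizontal axes, 1 point for each of 36 livers, coloured by dose. Both rise with Abcc3 (r of 0.89 and 0.88), and 1 liver at 541 mg/kg, with Abcc3 at 5.79, lies low in both panels.

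The rest of the ABC family was measured for 31 of 43 listed genes. None was called at 541 or 54.1 mg/kg against vehicle, and the median differences were 0.03 and 0.0021. In the trend 1 rose and 2 fell, and these are named for that. Abcd2, which imports very long-chain fatty acids into peroxisomes, rose by 0.11 ± 0.03 per step (adjusted p = 0.0492). Abcg5 and Abcg8, the 2 subunits of the canalicular sterol exporter and neighbours on chromosome 6, fell by 0.20 ± 0.04 and 0.25 ± 0.05 per step (adjusted p = 0.00807 and 0.0145). Abcg5 samples ran from 8.32 to 9.27 in vehicle, 7.78 to 8.27 at 5.41 mg/kg, 7.05 to 8.87 at 54.1 mg/kg and 7.24 to 8.52 at 541 mg/kg, so the means did not fall further at the top dose than at 5.41 mg/kg. Abcg8 ran from 6.61 to 7.79 in vehicle and from 5.08 to 6.95 at 541 mg/kg. Both genes had their lowest means at 54.1 mg/kg, where Abcg5 was at -1.08 and Abcg8 at -1.33 against vehicle (adjusted p = 0.0575 and 0.0936). That group was split: Abcg5 was 7.05 to 7.47 in replicates 1 to 4, 8.42 in replicate 5 and 8.87 in replicate 6. Abcg8 was 5.12 to 5.92 in replicates 1 to 4, 6.60 in replicate 5 and 7.52 in replicate 6. Differences of these genes without replicate 5, the array that stood apart, were not taken. Against vehicle at 541 mg/kg Abcg5 was at -0.74 ± 0.23 and Abcg8 at -1.004 ± 0.310 (adjusted p = 0.223 and 0.218). Over the 36 samples the 2 genes correlated at 0.96, and at 0.92 within groups. The other gene that the naming rule took, Abca2, was at 0.19 at 541 mg/kg (adjusted p = 0.307).

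Carriers that are not ABC proteins, canalicular flippases and membrane anchors of the exporters gave no call. Of 23 listed genes 19 were measured, with a median difference of -0.02 at 541 mg/kg. The 3 with the smallest p were the water channel Aqp8 at 0.19, the monocarboxylate carrier Slc16a1 at -0.23 and the organic cation carrier Slc22a18 at 0.16 (adjusted p = 0.25, 0.386 and 0.387).

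Receptors and factors that control exporter genes were measured for 23 of 24 listed. None was called against vehicle at 541 or 54.1 mg/kg, and in the trend 1 rose, Ahr, by 0.094 ± 0.023 per step (adjusted p = 0.0473). Ahr was 0.46 ± 0.14 higher at 541 mg/kg (adjusted p = 0.196), while its second probe set was at 0.02 (adjusted p = 0.979). The trend of that second probe set was -0.0052 per step (adjusted p = 0.945). Next by p were Keap1, the repressor of the factor Nfe2l2, at 0.16 and the sterol receptor Nr1h3 at 0.12 (adjusted p = 0.472 and 0.505). The other Keap1 probe set was at -0.0093 (adjusted p = 0.989). Named for their role, not by a rule, transcripts of the receptors CAR (Nr1i3) and PXR (Nr1i2) were at -0.37 and -0.16 at 541 mg/kg, those of Nfe2l2 at -0.03 and of the bile salt receptor Nr1h4 at -0.15, with no call. A transcript level does not report the activity of a receptor.

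Markers of other liver cells gave no call against vehicle at 541 or 54.1 mg/kg. The mean of 6 bile duct markers ran from 6.01 to 6.29 in vehicle and from 6.10 to 6.44 at 541 mg/kg. For 8 Kupffer cell markers the ranges were 7.83 to 8.74 and 7.94 to 8.65, for 11 stellate cell and fibroblast markers 6.99 to 7.38 and 6.79 to 7.47, and for 10 lymphocyte and neutrophil markers 4.80 to 5.08 and 4.91 to 5.16. The 9 endothelial markers measured all had lower means at 541 mg/kg, by a median of -0.13, with ranges of 7.71 to 8.07 in vehicle and 7.64 to 7.84 at 541 mg/kg. At 54.1 mg/kg 6 of those 9 had higher means. Of the 10 lymphocyte and neutrophil markers, 9 had higher means at 541 mg/kg and 9 at 54.1 mg/kg. Over all 14217 genes, 53.4% had higher means at 541 mg/kg and 53.6% at 54.1 mg/kg. The stellate marker Rgs5, chosen after its value was seen, was called higher at 541 mg/kg against the 3 lowest doses (0.47 ± 0.10, adjusted p = 0.0217). The part of such cells in the differences of Abcc3, Abcc4, Abcb1a and Abcb4 was not tested.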

How the data were processed

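Liver RNA of 36 rats was hybridised, 1 array a sample, to Affymetrix 3′ arrays, after amplification of 100 ng of RNA (integrity number 7 or above), per the labels' protocols. The deposited values were taken as log2; per the submitters' processing notes the authors made them with RMA and the affy package, and RMA corrects background, normalises arrays to each other and summarises probes. That the scale is log2 follows from RMA and was not tested against raw intensities.

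From them, limma 3.58.1 in R 4.3.3 fitted 6 group means to 31042 probe sets (57 control probe sets left out), with Benjamini-Hochberg adjustment at an FDR of 5% over all. A linear trend used dose ranks 0 to 5. Tests were two-sided. Where a gene had more than 1 probe set, the one of highest mean over all samples stood for it. Ratios to Abcc2 were tested by exact permutation. The procedure was tested on simulated data.

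Named were all members, the 8 genes with the highest r with Abcc3 and, from other lists, genes past the FDR or else the 3 with the smallest p at 541 mg/kg; list genes past the FDR in the trend, and those named for their role, were added with their values known. The 10 members and all lists were chosen with earlier results of these data known. Groups come from sample titles; no animal numbers are given there, and the p-values cover only sample-to-sample spread, which may be technical. No batch is named in the labels. Precision is limited by the number of arrays; over all probe sets, standard errors at 541 mg/kg had a median of 0.0799. Gene names came from the array annotation, and promoters from a table of RefSeq sequences that held 8 of the 10 members. Alternatives tried were a filter on dim probe sets, median centring, renewed quantile normalisation, array weights, an intensity-trended prior, a replicate block, only the groups compared and leaving out each sample.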

Additional observations from a re-analysis of the deposited data

Results flagged for a closer look

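Of 66 groups of 6 values (11 member probe sets in 6 groups), 2 held a sample far from the others by Dixon's criterion, and chance flags about 1 group in 20. Abcc4 was 5.66 in 541 mg/kg replicate 2, while the other 5 ran from 6.09 to 6.31; this is the liver with the lowest Abcc3 of that dose. Abcc2 was 9.57 in 5.41 mg/kg replicate 6, while the others ran from 10.04 to 10.24.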

How the results depend on the processing

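The call of Abcc3 at 541 mg/kg held in all 12 fits without 1 sample (1.95 to 2.40) and in every other alternative run. The count of members called against vehicle at 54.1 mg/kg was 0 to 1 over fits without 1 sample, the 0 being without vehicle replicate 1. At 54.1 mg/kg against the 3 lowest doses it was 0 to 1, and 1 under each of 3 settings: array quality weights, dim probe sets left out, and a fit of only the groups compared. At 541 mg/kg against the 3 lowest doses it was 1 to 3 over fits without 1 sample, 1 with only the groups compared and 1 with the replicate block (Abcb1a 0.42, adjusted p = 0.0697). In the trend it was 1 to 4, the 1 being without vehicle replicate 5, 541 mg/kg replicate 1 or 541 mg/kg replicate 5.

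With the replicate block, as paired sign flips of 6 pairs, the Abcc3 to Abcc2 ratio differed by 1.96 at 541 mg/kg and 1.48 at 54.1 mg/kg with exact adjusted p = 0.104 at both, each at the smallest unadjusted p that 6 pairs allow. In this paired test the Abcc4 to Abcc2 ratio at 541 mg/kg, 0.24 higher, had the same exact adjusted p of 0.104. At 5.41 mg/kg the Abcc3 to Abcc2 ratio ran from 0.46 to 0.81 over fits without 1 sample. Same-numbered samples of different groups did not deviate together on average (mean correlation 0.0141, with 24 of 90 pairs over 0.1). That mean cannot tell whether same-numbered samples shared a processing step. From vehicle to 54.1 mg/kg the GAPDH 3′ minus 5′ difference (log2) was -0.17 to -0.07 in replicate 1 and -0.01 to 0.06 in replicate 2. At 541 mg/kg it was -0.02 in replicate 1 and -0.06 in replicate 2. Whether the numbers pair samples was not settled. Signs changed only for differences near 0 that were never called. Abcg2 in the trend was 0.000338 after renewed quantile normalisation, 0.00312 with array weights, and -0.0088 to 0.0036 without 1 sample. Abcb11 at 541 mg/kg against the 3 lowest doses was -0.0053 with array weights and -0.025 to 0.049 without 1 sample; Abcg2 there was -0.032 to 0.055, and Abcc1 at 54.1 mg/kg -0.063 to 0.013. Other probe sets for the ratios were not run, since Abcc2, Abcc3 and Abcc4 have 1 each. Likeness to Abcc3 within groups was 0.76 for Aldh1a1, 0.60 for Ces2c, 0.57 for Ephx1, 0.66 for Gsta3, 0.50 for App, 0.64 for Aox1, 0.24 for Cyp2c6v1 and 0.55 for Gsta1. Over all probe sets, 48 were called at 541 mg/kg, and 83, 80, 74 and 31 with dim ones left out, array weights, renewed quantile normalisation and only the groups compared. At 54.1 mg/kg 23 became 37, 64 and 43 with dim ones left out, array weights and only the groups compared. Against the 3 lowest doses, 84 at 541 mg/kg became 134 with dim ones left out and 46 with only the groups compared, and 5 at 54.1 mg/kg became 9, 9 and 13 with dim ones left out, quantile normalisation and array weights. In the trend 222 became 376 both with dim ones left out and with array weights, and in the F-test 31 became 53 with array weights. Over fits without 1 sample these counts ran from 18 (without 541 mg/kg replicate 4) to 63 at 541 mg/kg, from 5 (without vehicle replicate 1) to 36 at 54.1 mg/kg, and from 85 (without 541 mg/kg replicate 1) to 272 in the trend. They ran from 36 (without 541 mg/kg replicate 1) to 107 at 541 mg/kg against the 3 lowest doses, from 5 to 10 (without 0.05 mg/kg replicate 5) at 54.1 mg/kg against the same, from 17 (without 541 mg/kg replicate 1, 3, 4 or 6) to 41 in the F-test, and from 0 to 2 (without 541 mg/kg replicate 4) between the 2 highest doses. The cause of these changes was not tested.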
